A study of Mus musculus with 13 samples.

Results

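The genes described here encode the machinery that brings nascent proteins into the endoplasmic reticulum (ER), cuts off their signal peptides and adds N-linked glycans. They are 34 genes chosen by symbol, of which 7 encode proteins of the signal recognition particle (SRP) and its receptor, 8 the Sec61 translocon and its partners, 4 the translocon-associated protein (TRAP) complex, 5 signal peptidase and 10 oligosaccharyltransferase (OST). All 34 had a row among the 22406 genes of the deposited tables and passed a filter of a mean of at least 2 TPM (footprints per transcript length, scaled to the library) in each table, as did 10432 genes in mouse embryonic fibroblasts (MEFs) and 10117 in NIH3T3 cells. The study profiled ribosome footprints, the mRNA fragments covered by ribosomes, in PERK WT and PERK -/- MEFs that were untreated (control) or given thapsigargin (Tg, 1 μM) for 1, 2, 5 or 8 h, and in NIH3T3 cells, a mouse fibroblast line, that were untreated or given Tg (0.2 μM) for 2 or 7 h. Tg blocks the SERCA pump, which fills the ER with calcium, and so causes ER stress. PERK, encoded by Eif2ak3, is the ER stress sensor that phosphorylates eIF2α. The 13 conditions were sequenced once each, without replicates, and no test between conditions was made. In such bulk libraries fewer cells of a type and less RNA per cell cannot be told apart. The labels give no second source of MEFs for either genotype, so the loss of PERK and other differences between the WT and PERK -/- cells cannot be told apart.

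Proteins bound for secretion or for membranes are recognized by SRP as they leave the ribosome and are brought to the SRP receptor on the ER. They then pass through the channel formed by Sec61, with TRAP, TRAM and the Sec62 and Sec63 proteins beside it. Signal peptidase removes the signal peptide, and OST transfers a glycan built on dolichol to asparagines of the entering chain. OST exists as a complex around STT3A, which sits at the translocon and acts during entry, and as a complex around STT3B, which can act later. Genes for many of these proteins are known targets of the XBP1 and ATF6 branches of the unfolded protein response.

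Because TPM values sum to the same total in every library, a change here is a gain or loss relative to all other translated mRNAs and says nothing of absolute rates of synthesis. A footprint change joins changes in mRNA level and in translation, which footprints alone do not separate. Each Tg library was divided by the control of the same cells, and changes are given as log2 ratios of TPM unless counts are named. A gene is said to have risen or fallen where it was at least 1.5-fold from its control, and the study's own 2-fold rule is counted apart. Values in square brackets are 95% intervals of the log2 change of a gene's expected counts per library total (exact, Clopper-Pearson), which cover counting error only. The TPM and count changes lay over 0.1 apart in 46 of the 340 values, so that a TPM change can fall outside its interval. In NIH3T3 cells at 2 h the TPM change minus the count change had a median of -0.12 over the members, from -0.28 to 0.08. In the other comparisons this median lay between -0.08 and 0.01. Intervals given for a median treat the genes as independent, which subunits of shared complexes are not. They describe the spread over genes and do not cover variation between libraries of a condition. The total expected counts ran from 2525029 (WT at 2 h) to 14799515 (PERK -/- at 2 h), and the median count of a member from 377.5 to 2117.5 per library. The smallest count of any member was 32, for Srp9 in WT at 2 h. Eif2ak3 had between 14.4 and 33.3 CPM (counts scaled to the library total) in PERK WT MEFs and between 7.64 and 19.1 in PERK -/- MEFs, so footprints on this gene remained in the libraries labelled PERK -/-, and gene tables do not show on which part. Fibroblast markers summed to between 4171 and 6698 TPM in MEFs and between 3455 and 4948 TPM in NIH3T3 cells. Epithelial markers summed to at most 25.1 TPM, endothelial to at most 5.14 and haematopoietic to at most 4.80 in any library. Of 10 fibroblast markers, 4, 1, 1 and 1 fell in WT MEFs at 1, 2, 5 and 8 h. The PERK -/- libraries had 6, 6, 3 and 3 that fell at these times. In NIH3T3 cells 4 of 7 fell at 2 h and 5 at 7 h. Of all expressed genes, 10.2%, 12.3%, 11.6% and 12% fell in these WT libraries and 13.4%, 18.8%, 12.8% and 8.24% in the PERK -/- ones. In NIH3T3 cells 18.2% fell at 2 h and 20.1% at 7 h. The part of these markers in the results was not tested.

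In PERK -/- MEFs, relative footprints on the genes of the machinery, taken as a whole, were higher after 8 h of Tg. Of the 34 genes, 32 were above their control, with a median log2 change of 0.62 (95% interval of the median over genes 0.41 to 0.90). The median of all expressed genes was 0.04, and 5599 of the 10432 were above their control. At the same time in PERK WT MEFs, 17 genes were above and 17 below their control, with a median of 0.06 (-0.11 to 0.38) beside 0.01 for all expressed genes, of which 5261 were above. Together the 34 genes took 0.965% of all TPM in the PERK -/- control and 1.57% at 8 h, an increase of 62.4%. In PERK WT MEFs they went from 0.830% to 0.935%, and in NIH3T3 cells from 0.930% to 0.764% at 2 h and 1.08% at 7 h.

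The 2-fold rule singled out 7 genes in PERK -/- MEFs at 8 h, all of them up. They were Srprb, Sec61a1, Ssr4, Spcs2, Sec11c, Dad1 and Krtcap2, at least 1 from each complex, and 3.28% of all expressed genes were up and 2.73% down by this rule. Sec11c, Srprb, Sec61a1, Dad1 and Spcs2 stayed past 2-fold under all 9 alternatives tried for single genes. Krtcap2 and Ssr4, just past the threshold, did so in 4 and 6 of the 9, and just under it were Ostc at 0.92 and Stt3a at 0.91. PERK WT MEFs had 1 such gene at 5 h and 1 at 8 h, in both cases Sec61b, which was up. Of all expressed genes, 5.86% were up and 3.55% down 2-fold in WT at 5 h, and 6.45% and 3.87% at 8 h. In NIH3T3 cells, Tram2 alone was past 2-fold at 7 h, where it was down, beside 7.01% of expressed genes up and 8.06% down. In the other 6 comparisons 0 members were past 2-fold in either direction, beside 6.62% of expressed genes in WT at 1 h, 9.66% in WT at 2 h, 4.1% in PERK -/- at 1 h, 6.4% at 2 h and 8.03% at 5 h, and 9.52% in NIH3T3 cells at 2 h.

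Counts of members past 1.5-fold are given with the share of all expressed genes in brackets. At 1 h in PERK WT MEFs, 1 member rose (12.8% of expressed genes did) and 2 fell (10.2%), and at 2 h 1 rose (15.3%) and 4 fell (12.3%). At 5 h 7 rose (16.7%) and 2 fell (11.6%), and at 8 h 6 rose (17.8%) and 1 fell (12%). In the libraries labelled PERK -/-, 0 rose (3.78%) and 0 fell (13.4%) at 1 h, and 0 rose (3.57%) and 2 fell (18.8%) at 2 h. Then 6 rose (10.6%) and 0 fell (12.8%) at 5 h, and 18 of the 34 rose (12.5%) and 0 fell (8.24%) at 8 h. In NIH3T3 cells, 0 rose (12%) and 7 fell (18.2%) at 2 h, and 6 rose (16.7%) and 1 fell (20.1%) at 7 h. Of these 64 changes past 1.5-fold, 39 stayed past it under all 9 alternatives and 0 changed sign under any. Of the 7 that fell in NIH3T3 cells at 2 h, only Stt3b stayed past 1.5-fold under all 9. Read against the backgrounds, the shares in PERK WT MEFs were near or below those of all genes. The 7 of 34 that rose at 5 h were only slightly more than 16.7%, so no direction is read from the WT counts. In PERK -/- MEFs at 8 h the count that rose was a larger share of the members than of all genes.

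**Figure D1:**
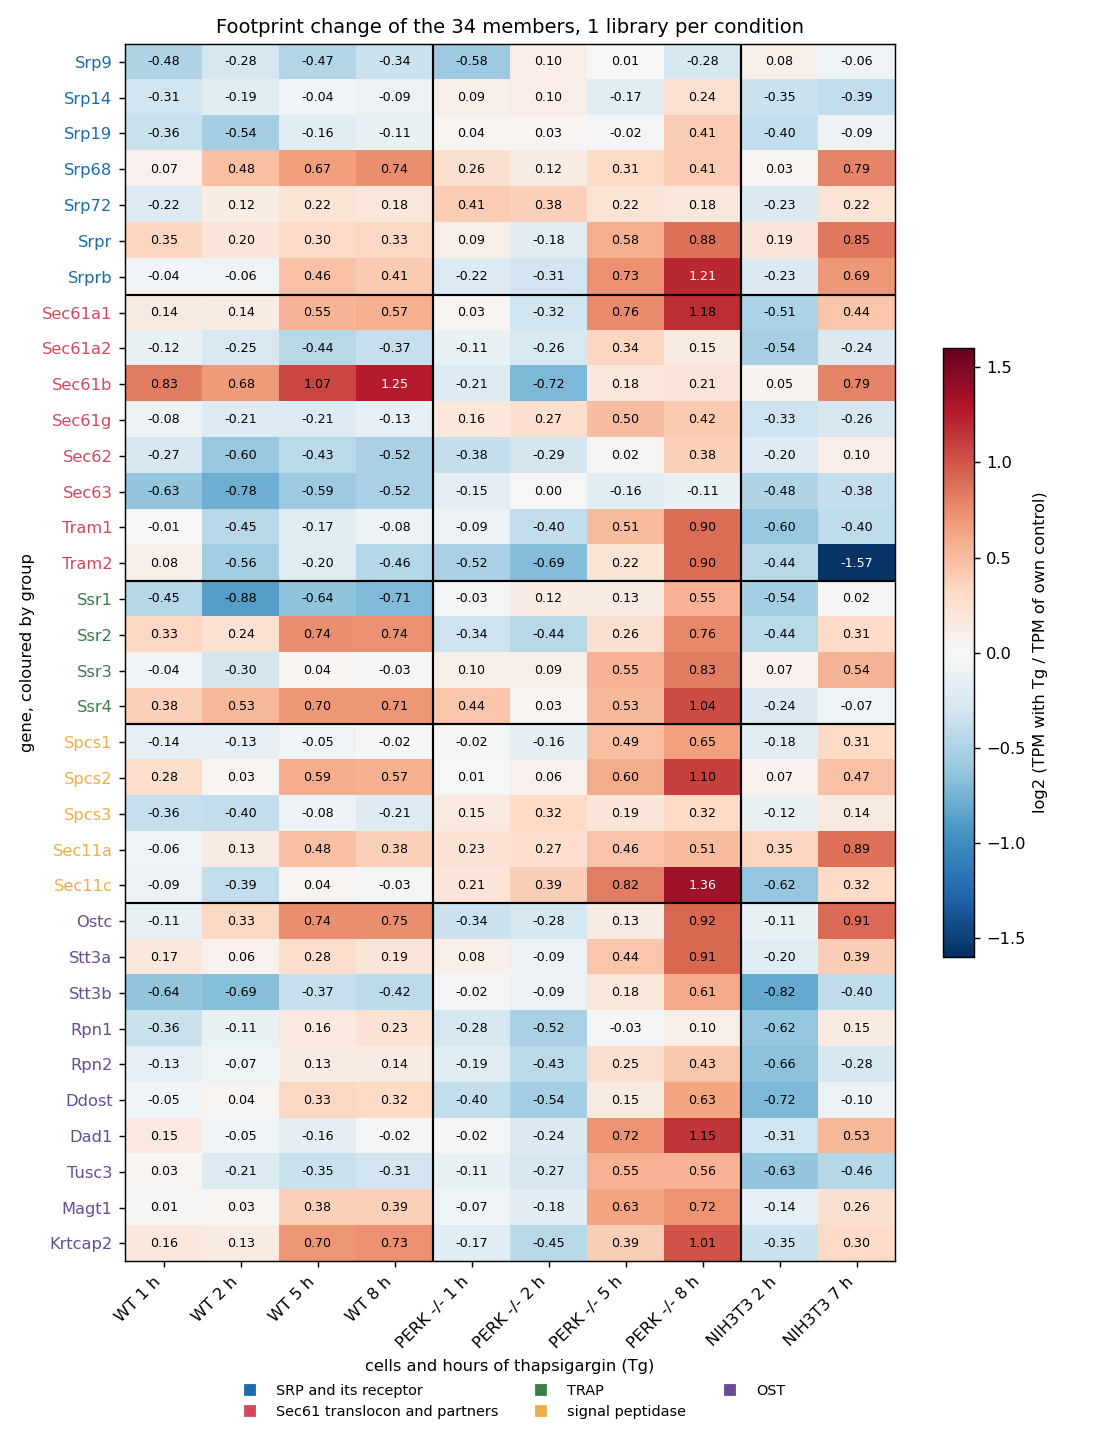
Log2 change in TPM of each of the 34 genes (rows, grouped by complex) in each Tg library against the control of the same cells (columns, 1 library per condition), with red for higher and blue for lower. In the PERK -/- 8 h column, 32 of 34 cells are above 0 and the strongest is Sec11c at 1.36, while the WT 8 h column holds 17 values above and 17 below 0.

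The complexes did not move alike. In PERK -/- MEFs at 8 h, the median was 0.80 for TRAP, 0.68 for OST, 0.65 for signal peptidase, 0.41 for SRP and its receptor and 0.40 for the Sec61 group. In PERK WT MEFs at 8 h the medians were 0.34 for TRAP, 0.21 for OST, 0.18 for SRP, -0.02 for signal peptidase and -0.25 for the Sec61 group. The last of these and that of SRP depended on which genes were counted, since the 4 Sec61 channel genes alone had a median of 0.22 and SRP without its receptor -0.09. In PERK -/- MEFs these narrower groups stood at 0.31 and 0.24. Within a complex, the members of WT cells lay further apart than those of PERK -/- cells for TRAP, with an SD over its 4 genes of 0.69 against 0.20, for the Sec61 group (0.63 against 0.44) and for OST (0.38 against 0.31). For SRP and signal peptidase the SD was lower in WT cells (0.37 against 0.48 and 0.32 against 0.43). At 2 h, all 10 OST genes were under their control in PERK -/- MEFs (median -0.27) and in NIH3T3 cells (median -0.49). The Sec61 group had like medians there, -0.31 and -0.46, with 6 and 7 of its 8 genes under their control. Over all expressed genes the medians were -0.11 and -0.13 on the TPM scale. Under the alternatives, up to 3 and 2 of the 10 OST genes were above their control. In these libraries 6 of 10 and 4 of 7 fibroblast markers fell, beside 18.8% and 18.2% of all expressed genes. Other libraries had like marker counts and other OST medians. In NIH3T3 cells at 7 h, 5 of 7 fell and the OST median was 0.20. In PERK -/- MEFs at 1 h, 6 of 10 fell (OST median -0.14), and in WT MEFs at 1 h 4 of 10 (-0.02). A link between markers and OST was not tested. In WT MEFs at 2 h, 5 OST genes were above and 5 below. Signal peptidase had a median of 0.27 in PERK -/- MEFs at 2 h, with 4 of 5 genes above their control, and 0.10 once the GC trend was taken out.

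**Figure D2:**
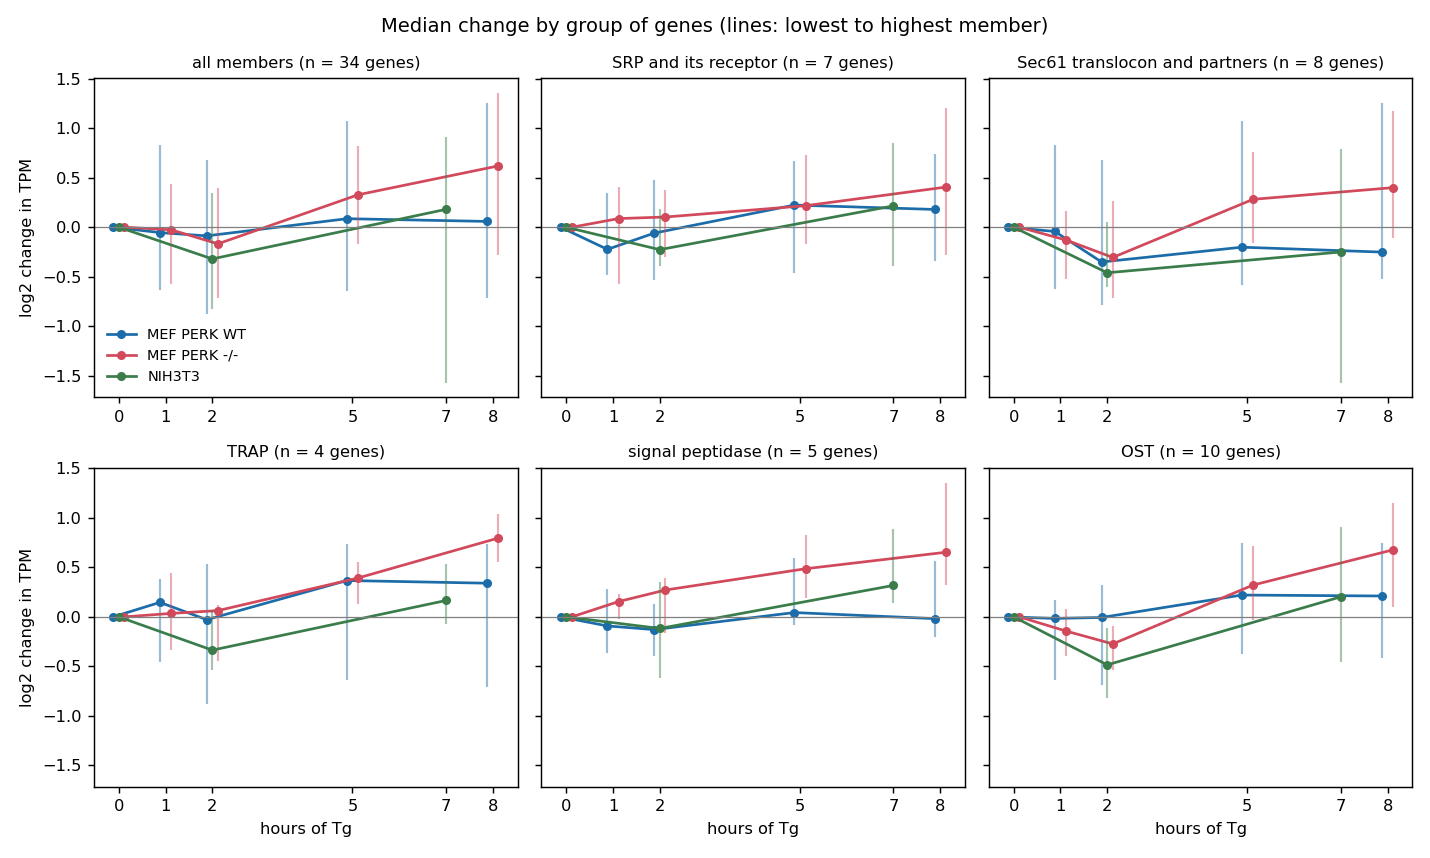
Median log2 change in TPM (points) of all 34 genes and of each complex against hours of Tg, in PERK WT MEFs (blue), PERK -/- MEFs (red) and NIH3T3 cells (green), with vertical lines from the lowest to the highest member. The PERK -/- median of all members goes from -0.17 at 2 h to 0.33 at 5 h and 0.62 at 8 h, and the WT median stays between -0.09 and 0.09.

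For targeting, both receptor subunits rose at 8 h in PERK -/- MEFs, while 0 of the 5 listed proteins of the particle did. Srprb, the membrane-anchored GTPase subunit of the SRP receptor, had 137, 133, 131, 189 and 182 TPM in PERK WT MEFs (control, 1, 2, 5 and 8 h), 122, 104, 98.7, 202 and 282 TPM in PERK -/- MEFs at the same times, and 238, 202 and 384 TPM in NIH3T3 cells (control, 2 and 7 h). The late libraries of all 3 kinds of cells were above their control, and the early ones under it. The log2 change was 0.41 in WT [0.31 to 0.52] and 1.21 in PERK -/- MEFs [1.07 to 1.33] at 8 h, and 0.69 in NIH3T3 cells [0.60 to 0.78] at 7 h. Srpr, the α subunit that pairs with the GTPase of SRP, was at 61.8, 78.6, 70.7, 76.1 and 77.6 TPM in WT and 66.7, 71.0, 59.0, 99.8 and 122 TPM in PERK -/- MEFs. It rose at 8 h in PERK -/- MEFs (0.88) and at 7 h in NIH3T3 cells (0.85, from 60.7 to 109 TPM), while in WT MEFs it was highest at 1 h (0.35). Srp68, which forms a dimer with Srp72 on the SRP RNA, was the listed protein of the particle that moved most in WT cells, with 55.8, 58.6, 77.9, 88.6 and 93.5 TPM. It rose in WT MEFs at 5 h (0.67) and 8 h (0.74) [0.64 to 0.85] and in NIH3T3 cells at 7 h (0.79), and it was at 0.41 in PERK -/- MEFs at 8 h. Its partner Srp72 lay at 0.18, 0.18 and 0.22 in these late libraries, so the TPM ratio of Srp68 to Srp72 went from 0.684 to 1.01 (WT), from 0.609 to 0.714 (PERK -/-) and from 0.556 to 0.829 in NIH3T3 cells.

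The small SRP proteins showed no gain in WT cells. Srp9, which with Srp14 forms the part of SRP that slows elongation, had 82.5, 59.1, 68.1, 59.7 and 65.2 TPM in WT and 143, 95.7, 153, 144 and 118 TPM in PERK -/- MEFs, with counts low enough that the interval at 8 h in WT ran from -0.67 to -0.01. Srp14 stayed between -0.31 and -0.04 in WT MEFs and was at 0.24 in PERK -/- MEFs at 8 h. Srp19, which helps SRP assemble on its RNA, had its lowest change at 2 h in WT (-0.54) and was at 0.41 in PERK -/- MEFs at 8 h.

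Among the channel subunits, Sec61a1 and Sec61b had different patterns in WT and PERK -/- MEFs. Sec61a1, the pore-forming subunit, had 347, 382, 382, 508 and 515 TPM in PERK WT MEFs, 392, 400.1, 314, 663 and 887 TPM in PERK -/- MEFs and 330.3, 232 and 449.6 TPM in NIH3T3 cells. At 8 h the log2 change was 0.57 in WT [0.52 to 0.62] and 1.18 in PERK -/- MEFs [1.12 to 1.23], and the PERK -/- libraries at 5 and 8 h were the highest of all 13. Sec61b, a small single-pass subunit of the channel, lay on opposite sides of its control in the 2 genotypes at 1 and 2 h and above it in both at 5 and 8 h, with 176, 313, 281, 369.5 and 419 TPM in WT and 276, 238, 168, 312 and 319 TPM in PERK -/- MEFs. All 4 Tg libraries of WT cells were above their control, by 0.83, 0.68, 1.07 and 1.25 at 1, 2, 5 and 8 h. In PERK -/- MEFs the values were -0.21, -0.72, 0.18 and 0.21, with a fall at 2 h [-0.83 to -0.46]. In NIH3T3 cells Sec61b had 248, 257 and 429.5 TPM and rose at 7 h (0.79). The coding sequence of Sec61b has 61.5% GC, the highest of the 34 genes, whose median is 48.7%. After a trend on coding GC content was taken out, its WT change was 0.84 at 8 h and 0.38 at 2 h, so it was then under 2-fold and, at 2 h, under 1.5-fold.

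Sec61g, the other small subunit, had 534, 505, 461, 462 and 487 TPM in WT, 515, 577, 619.6, 727 and 688 TPM in PERK -/- MEFs and 970.5, 773 and 808 TPM in NIH3T3 cells, with no library 1.5-fold from its control by TPM. At 5 h in PERK -/- MEFs its change was 0.50 in TPM and 0.65 in counts [0.52 to 0.78]. Sec61a2, a paralog of the pore subunit, was at -0.12, -0.25, -0.44 and -0.37 in WT MEFs, below the control at each time, and at -0.11, -0.26, 0.34 and 0.15 in PERK -/- MEFs. Its level was lower, between 36.1 and 64.7 TPM in MEFs and between 8.83 and 12.8 TPM in NIH3T3 cells. The coding sequences of Sec61a1 and Sec61a2 share 5 of 1407 words of 22 nt, the shortest footprint kept, and 0 words of 28 nt. Stt3a and Stt3b, Tusc3 and Magt1, Sec11a and Sec11c, and Tram1 and Tram2 share 0 words of either length. Footprints mapped with mismatches were not examined.

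Of the partners of the channel, Sec62 fell in WT MEFs at 2 h and Sec63 at 1, 2 and 5 h. The TRAM genes rose in PERK -/- MEFs at 8 h. Sec63, which brings the chaperone BiP to the channel, had 153, 98.8, 88.6, 102 and 106 TPM in WT MEFs, below the control in all 4 Tg libraries and past 1.5-fold at 1, 2 and 5 h. In PERK -/- MEFs it had 130.5, 117, 131, 117 and 121 TPM, with log2 changes between -0.16 and 0.00, and its counts at 8 h gave 0.06 [-0.03 to 0.15]. Sec62, which works with Sec63 on proteins that enter after synthesis, had 196, 162, 129, 145 and 137 TPM in WT and 206, 159, 168, 209 and 269 TPM in PERK -/- MEFs. It fell in WT at 2 h (-0.60), past 1.5-fold in 7 of the 9 alternatives. At 8 h it was at -0.52 in WT and at 0.38 in PERK -/- MEFs. Tram1, a membrane protein next to the channel that contacts signal peptides, had 255, 239.5, 194, 362 and 476 TPM in PERK -/- MEFs, with a rise at 8 h (0.90). Its WT values were 179, 178, 131, 159 and 168 TPM, lowest at 2 h (-0.45), and in NIH3T3 cells, where its level was lower, it had 36.1, 23.8 and 27.3 TPM. The paralog Tram2 had 44.0, 46.5, 29.9, 38.4 and 32.1 TPM in WT and 61.3, 42.6, 37.9, 71.4 and 114 TPM in PERK -/- MEFs, where it fell at 2 h (-0.69) and rose at 8 h (0.90). In NIH3T3 cells Tram2 had 33.8, 24.9 and 11.4 TPM and fell by 1.57 at 7 h [-1.93 to -1.22], the only member past 2-fold in that library.

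TRAP, which helps some signal peptides open the channel, was split at 8 h in WT cells, where 2 genes rose and 1 fell, while in PERK -/- cells 3 of 4 rose and the other was above its control. Ssr1, its α subunit, had 824, 601, 448, 529 and 503 TPM in WT MEFs, where it fell at 2, 5 and 8 h, and 875, 859, 949, 957 and 1284 TPM in PERK -/- MEFs. The change at 8 h was -0.71 in WT [-0.76 to -0.66] and 0.55 in PERK -/- MEFs [0.49 to 0.60], so the genotypes lay on opposite sides of their controls. In NIH3T3 cells Ssr1 had 471, 324 and 478 TPM. Ssr2, the β subunit, had 406, 511, 479, 678 and 676 TPM in WT and 599.5, 475, 441, 716 and 1017 TPM in PERK -/- MEFs. Here the genotypes were alike in size at 8 h (0.74 and 0.76), and at 1 and 2 h WT was above and PERK -/- below its control. Ssr3, the γ subunit, had 774, 753, 631, 795 and 760.4 TPM in WT MEFs, with 1 value apart at 2 h, and 837, 896, 893, 1230.0 and 1489 TPM in PERK -/- MEFs, with a rise of 0.83 at 8 h. It was the most abundant of the 34 genes at 8 h in both genotypes. Ssr4, the δ subunit, had 185, 241, 268, 299.9 and 302 TPM in WT and 216, 293, 221, 311 and 445 TPM in PERK -/- MEFs, and rose in both at 8 h (0.71 and 1.04). Its WT counts changed less, by 0.54 [0.43 to 0.66], under 1.5-fold, and in NIH3T3 cells it had 425, 361 and 405 TPM, with no rise.

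For signal peptidase, the change at 8 h was larger in PERK -/- than in WT MEFs for all 5 genes, with an interval of the difference that held 0 for Sec11a. Sec11c, a catalytic subunit, had 51.9, 48.7, 39.5, 53.5 and 50.9 TPM in WT and 39.6, 45.7, 52.0, 70.1 and 102 TPM in PERK -/- MEFs. All 4 PERK -/- Tg libraries were above their control, which was the lowest of the MEF libraries for this gene other than WT at 2 h, and the change of 1.36 at 8 h [1.11 to 1.74] was the largest rise of any member. Sec11a, the other catalytic subunit, had 174, 167, 191, 243 and 228 TPM in WT, 220.0, 259, 266, 302 and 314 TPM in PERK -/- MEFs and 136, 173 and 252 TPM in NIH3T3 cells, with a rise at 7 h in the last (0.89) and 8 h values of 0.38 in WT and 0.51 in PERK -/- MEFs. Spcs2, a noncatalytic subunit, had 259.9, 317, 266, 391 and 386 TPM in WT and 341, 343, 356, 516 and 729.5 TPM in PERK -/- MEFs, or 0.57 and 1.10 at 8 h. Spcs1, another, had 258, 235, 236, 249 and 255 TPM in WT MEFs, close to its control throughout, and 296, 291, 265, 414 and 465 TPM in PERK -/- MEFs with a rise at 8 h (0.65). Spcs3, which the catalytic activity needs, was at -0.36, -0.40, -0.08 and -0.21 in WT and 0.15, 0.32, 0.19 and 0.32 in PERK -/- MEFs, and so below its control in each WT and above it in each PERK -/- library by TPM. At 5 and at 8 h its WT value was above 0 under 1 of the 9 alternatives (0.14 and 0.05).

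The 10 OST genes were all above their control in PERK -/- MEFs at 8 h, by log2 changes from 0.10 for Rpn1 to 1.15 for Dad1, and 7 of them rose. Dad1, a small membrane subunit, had 288, 320.2, 279, 258 and 283 TPM in WT, 303, 298, 257, 498 and 670.1 TPM in PERK -/- MEFs and 396, 319 and 572 TPM in NIH3T3 cells. The WT libraries stayed between 258 and 320.2 TPM, and the PERK -/- libraries at 5 and 8 h were above all of them. Krtcap2, which ties the STT3A complex to the translocon, had 381, 427, 416, 620.0 and 631 TPM in WT and 562, 498, 413, 736 and 1131 TPM in PERK -/- MEFs. It rose in WT at 5 h (0.70) and 8 h (0.73), where its counts moved more (0.91) [0.82 to 1.01], and in PERK -/- MEFs at 8 h (1.01) [0.90 to 1.10]. Ostc, the other subunit that docks STT3A to the translocon, had 202, 186, 253, 337 and 338 TPM in WT, 229.6, 181, 189, 252 and 433 TPM in PERK -/- MEFs and 226, 209.9 and 425 TPM in NIH3T3 cells. Its rise at the late time was of like size in all 3, with 0.75, 0.92 and 0.91. Stt3a, the catalytic subunit of that complex, had 386, 435, 404, 469 and 441 TPM in WT and 391, 414, 366, 529.6 and 736 TPM in PERK -/- MEFs, a change at 8 h of 0.19 [0.17 to 0.25] and 0.91 [0.83 to 0.92].

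In the STT3B complex, the catalytic subunit fell early in WT cells and rose late in PERK -/- cells. Stt3b, its catalytic subunit, had 145, 93.1, 90.0, 112 and 109 TPM in WT MEFs, with falls at 1 h (-0.64) and 2 h (-0.69), 159, 157, 149, 179 and 242 TPM in PERK -/- MEFs, and 134, 75.6 and 101 TPM in NIH3T3 cells, with a fall at 2 h (-0.82). All Tg libraries of WT MEFs and NIH3T3 cells were below their control, and in PERK -/- MEFs Stt3b rose at 8 h (0.61) [0.53 to 0.67]. Tusc3, an oxidoreductase of this complex, was at -0.31 in WT and 0.56 in PERK -/- MEFs at 8 h and at -0.46 in NIH3T3 cells at 7 h. Its paralog Magt1 had 145, 146, 149, 188 and 189 TPM in WT and 173, 165, 153, 269 and 286 TPM in PERK -/- MEFs and was above its control in both at 8 h, by 0.39 and 0.72. The shared subunits Rpn1, Rpn2 and Ddost lay at 0.23, 0.14 and 0.32 in WT MEFs at 8 h and at 0.10, 0.43 and 0.63 in PERK -/- MEFs. At 2 h in NIH3T3 cells these 3 fell by 0.62, 0.66 and 0.72, and each came closer to its control at 7 h (0.15, -0.28 and -0.10). Under TMM factors on counts the 3 values were -0.46, -0.49 and -0.56, under 1.5-fold.

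A division of OST into its 2 complexes was made after the values were seen. The 3 genes particular to STT3A (Stt3a, Ostc, Krtcap2) summed to 969 TPM in the WT control and 1409.9 TPM at 8 h, and the 3 particular to STT3B (Stt3b, Tusc3, Magt1) to 351 and 347 TPM. In PERK -/- MEFs, the STT3A sum went from 1182 to 2300.0 TPM and the STT3B sum from 415 to 649.5 TPM. In NIH3T3 cells the sums went from 1039.8 to 1454 TPM and from 393 to 349 TPM at 7 h. So the sum for STT3B was higher in PERK -/- MEFs and near or below its control in WT MEFs and NIH3T3 cells.

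Because TPM is per length, ratios of subunits within a library can be compared. The ratio of Stt3a to Stt3b was 2.67, 4.67, 4.49, 4.19 and 4.07 in PERK WT MEFs (control, 1, 2, 5 and 8 h), 2.46, 2.65, 2.46, 2.96 and 3.05 in PERK -/- MEFs, and 2.43, 3.75 and 4.22 in NIH3T3 cells (control, 2 and 7 h). The 3 controls were close to each other, all Tg libraries of WT MEFs and NIH3T3 cells were at 3.75 or more, and those of PERK -/- MEFs reached 3.05. The ratio of Ssr2 to Ssr1 went by 8 h from 0.493 to 1.34 (WT) and from 0.685 to 0.792 (PERK -/-). That of Sec61b to Sec61a1 went up in WT, from 0.506 to 0.813, and down in PERK -/- MEFs, from 0.705 to 0.359, with a step down at each time. The ratio of Magt1 to Tusc3 went from 2.39 to 3.87 (WT), from 2.10 to 2.35 (PERK -/-) and from 0.928 to 1.53 in NIH3T3 cells.

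**Figure D3:**
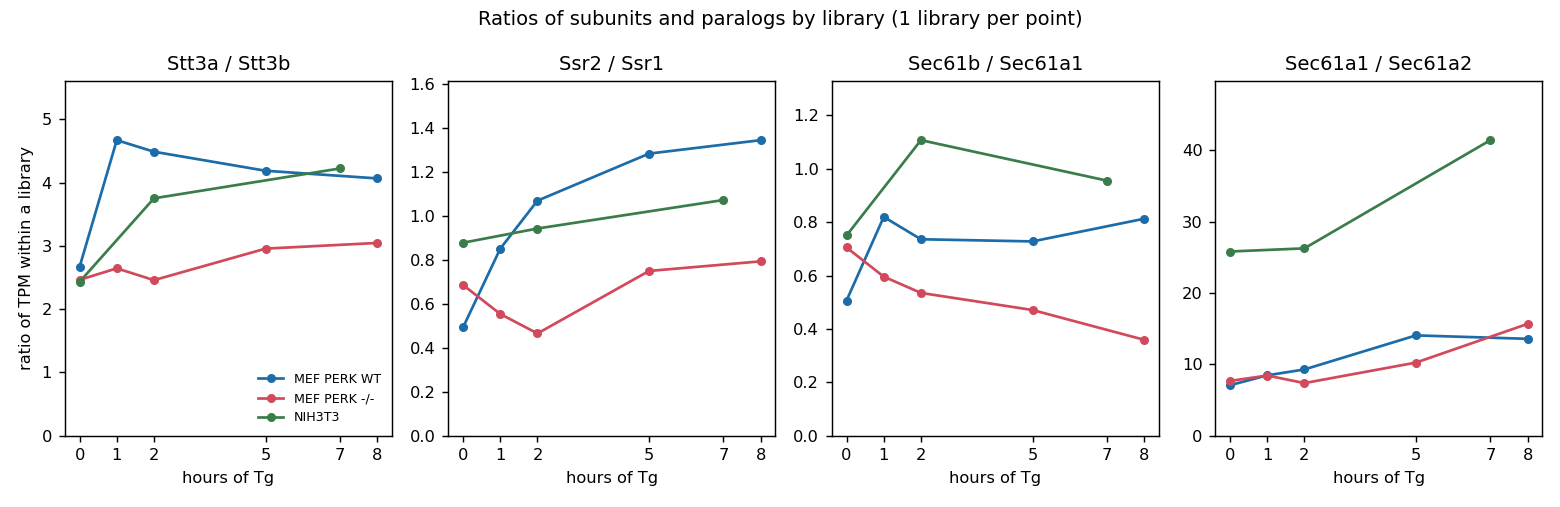
Ratio of TPM between 2 genes of the same library (vertical axes, starting at 0) against hours of Tg, for Stt3a to Stt3b, Ssr2 to Ssr1, Sec61b to Sec61a1 and Sec61a1 to Sec61a2, in PERK WT MEFs (blue), PERK -/- MEFs (red) and NIH3T3 cells (green). Each point is 1 library, and Stt3a to Stt3b is at 4.07 at 8 h in WT and at 4.22 at 7 h in NIH3T3 cells against 3.05 in PERK -/- MEFs.

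The changes in WT and PERK -/- MEFs were then set side by side at each time. At 8 h, the log2 change in PERK -/- MEFs was above that in PERK WT MEFs for 30 of the 34 genes, with a median difference of 0.52 (95% interval of the median 0.32 to 0.72), while over all 10432 expressed genes the median difference was 0 and 5102 were higher. For 25 members the interval of the difference in counts lay above 0 and for 3 below it. The widest differences were 1.39 for Sec11c [1.01 to 1.80], 1.35 for Tram2 [1.09 to 1.59], 1.26 for Ssr1 [1.18 to 1.33], 1.17 for Dad1 [0.96 to 1.36] and 1.02 for Stt3b [0.92 to 1.11]. The 3 in the other direction were Sec61b at -1.05 [-1.31 to -0.80], Srp68 at -0.34 [-0.53 to -0.17] and Rpn1 at -0.13 [-0.23 to -0.06]. Ssr2, Srp9, Srp72, Sec11a, Ostc and Krtcap2 had intervals that held 0, for example -0.09 to 0.13 for Ssr2 and -0.16 to 0.13 for Srp72. The median difference was -0.07 at 1 h and -0.04 at 2 h, with 16 and 15 genes higher in PERK -/- MEFs, and 0.26 at 5 h with 23 genes higher. All expressed genes had medians of -0.09, -0.19 and -0.04 at these times. For OST, the difference was below 0 in 9 of 10 genes at 2 h (median -0.29) and above 0 in 9 of 10 at 8 h (median 0.33). With TMM factors or DESeq2 size factors only 5 of 10 were below 0 at 2 h, as Stt3a, Dad1, Tusc3 and Magt1 then joined Stt3b above it, and with the GC trend taken out 8 were below.

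**Figure D4:**
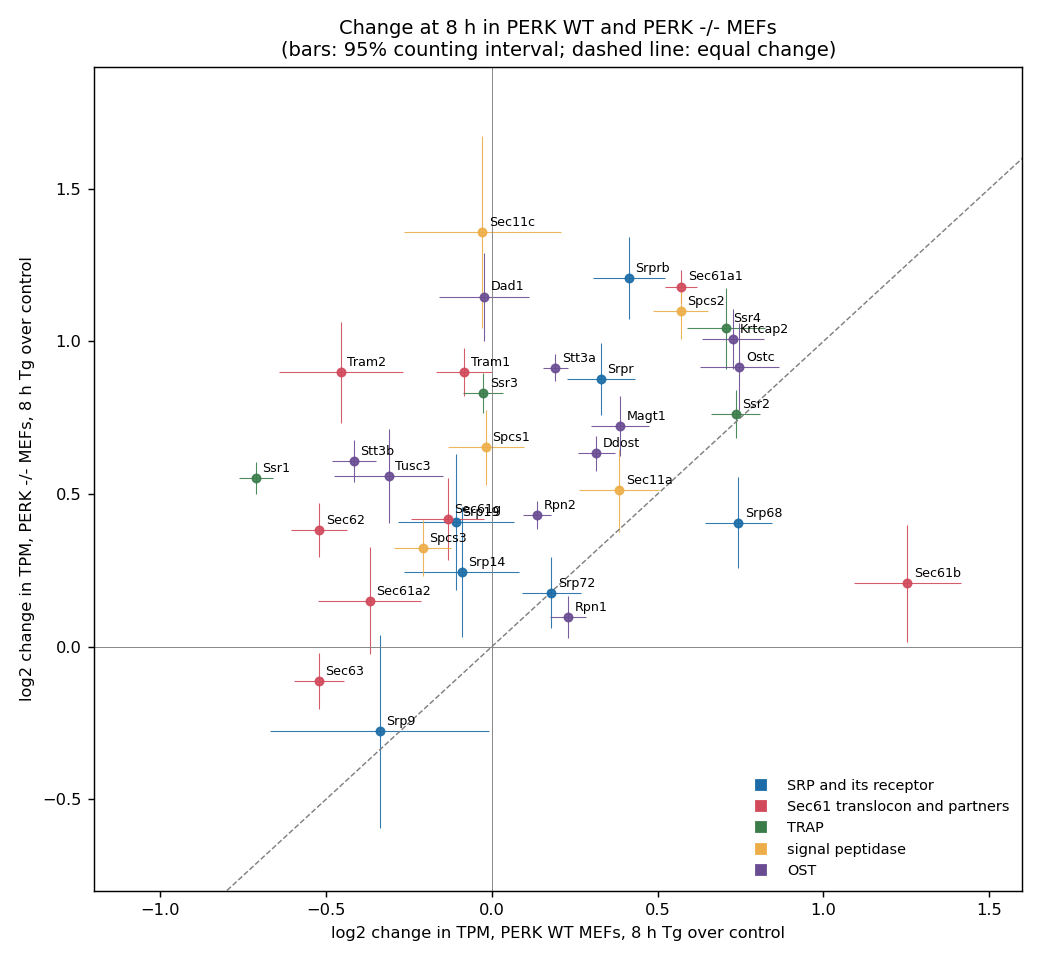
Log2 change in TPM at 8 h of Tg in PERK WT MEFs (horizontal axis) and PERK -/- MEFs (vertical axis), 1 point per gene coloured by complex, with bars as wide as the 95% counting intervals and a dashed line of equal change. Of the 34 points 30 lie above the line, and Sec61b, at 1.25 and 0.21, is farthest below it.

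Levels before Tg differed less. In the untreated cells, PERK -/- MEFs were above PERK WT MEFs in 26 of 34 genes by TPM, with a median log2 ratio of 0.15 (0.07 to 0.33) beside 0.08 for all expressed genes. With TMM factors the median was 0.01. All 10 OST genes and all 4 TRAP genes were higher in the PERK -/- control by TPM, from 0.02 for Stt3a to 0.56 for Ssr2 and Krtcap2. With TMM factors 4 of these OST genes (Stt3a, Stt3b, Rpn1 and Dad1) and 2 of the TRAP genes (Ssr1 and Ssr3) were instead below the WT control. The largest ratios were those of Srp9 (0.79, from 82.5 to 143 TPM) and Sec61b (0.65, from 176 to 276 TPM), and the lowest that of Sec11c (-0.39, from 51.9 to 39.6 TPM, and -0.59 in counts). At 8 h Sec61b was at 419 TPM in WT and 319 TPM in PERK -/- MEFs, the reverse of the order of its controls.

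Neighbouring times, which are not replicates, give a yardstick for the size of these changes. Between 5 and 8 h in PERK WT MEFs, the 34 genes differed by a median of 0.01, with an SD of 0.08 and at most 0.26 (Tram2), so the pattern of these 2 libraries was almost the same. Between 1 and 2 h the SD was 0.24 in WT and 0.22 in PERK -/- MEFs. Over all expressed genes the SD was 0.19 from 5 to 8 h in WT. From 1 to 2 h it was 0.46 in WT and 0.30 in PERK -/- MEFs. From 5 to 8 h in PERK -/- MEFs, 30 of the 34 genes were higher again, by a median of 0.38, with Ostc at 0.78. From 2 to 5 h, 30 genes were higher in WT (median 0.27) and 28 in PERK -/- MEFs (median 0.51), and from 2 to 7 h 31 were higher in NIH3T3 cells (median 0.45). All expressed genes had a median of 0.05 from 5 to 8 h in PERK -/- MEFs. From 2 to 5 h theirs was 0 in WT and 0.09 in PERK -/- MEFs, and from 2 to 7 h 0.06 in NIH3T3 cells.

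NIH3T3 cells received another dose and were taken at other times, so their values are set beside those of MEFs without a test. Across the 34 genes, which are not independent replicates, the change at 7 h in NIH3T3 cells had a Pearson correlation of 0.64 (Spearman 0.69) with that at 8 h in PERK WT MEFs and of 0.24 (0.35) with that at 8 h in PERK -/- MEFs. Over the 9367 genes expressed in both kinds of cells these were 0.27 (0.24) and 0.02 (0.00). The 6 genes that rose at 7 h were Ostc, Sec11a, Srpr, Sec61b, Srp68 and Srprb. Of these, Ostc, Sec61b and Srp68 also rose in WT MEFs at 8 h, and Ostc, Srpr and Srprb in PERK -/- MEFs. The 6 lowest at 7 h, Tram2, Tusc3, Stt3b, Tram1, Srp14 and Sec63, were also below their control in WT MEFs at 8 h, as were 17 of all 34 members. Tram1 and Srp14 were close to it there (-0.08 and -0.09). In PERK -/- MEFs at 8 h all of the 6 but Sec63 were above their control, as were 32 of all 34 members, so this says little of likeness.

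The other genes of the pathway, taken from lists of textbook members and named where both libraries had at least 100 counts, did not share one direction. Of 26 genes that build the dolichol-linked glycan, 8 rose and 2 fell in WT MEFs at 8 h, 8 rose and 0 fell in PERK -/- MEFs at 8 h, and 3 rose and 1 fell in NIH3T3 cells at 7 h, with medians of 0.31, 0.44 and 0.07. Of all expressed genes, 17.8% rose and 12% fell in the first of these libraries, 12.5% and 8.24% in the second and 16.7% and 20.1% in the third. Alg12, a mannosyltransferase of late assembly, rose in WT MEFs from 5.69 to 21.7 TPM (1.93) [1.52 to 2.18] and in NIH3T3 cells from 10.4 to 51.4 TPM (2.30). Alg2, a mannosyltransferase of early assembly, rose from 28.5 to 84.4 TPM (WT MEFs), from 43.7 to 90.9 TPM (PERK -/- MEFs) and from 33.9 to 85.4 TPM in NIH3T3 cells. Dpagt1, the enzyme of the first step, went from 24.2 to 59.3 TPM in PERK -/- MEFs at 8 h (1.29), and Alg14, of the second step, from 27.4 to 57.4 TPM (1.07). Dolpp1, which recycles the dolichol carrier, rose from 15.3 to 32.9 TPM in WT MEFs (1.10) and from 22.4 to 50.1 TPM in NIH3T3 cells (1.16). In PERK -/- MEFs at 8 h it had the largest rise of the list (1.33), though below the limit of 100 counts. Alg10b, which adds the last glucose, fell by 0.78 in WT MEFs and by 0.85 in NIH3T3 cells.

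The lists for supply and later handling of the glycan and for other routes hold 10 genes or fewer, so that 1 or 2 genes make up a share near that of all expressed genes in the same libraries (17.8% up and 12% down in WT MEFs, 12.5% and 8.24% in PERK -/- MEFs and 16.7% and 20.1% in NIH3T3 cells), and no direction is read from their counts. Of 5 genes for UDP-GlcNAc synthesis, 2 rose in WT MEFs at 8 h, 1 rose and 1 fell in PERK -/- MEFs and 1 of 4 expressed rose in NIH3T3 cells, with Pgm3 at 0.74, 0.60 and -0.01. Of 8 genes for glycan trimming and the lectin cycle, 0 rose in any of the late libraries, and 2 fell in WT, 3 in PERK -/- and 2 in NIH3T3 cells. Uggt2, a glucosyltransferase that senses folding, fell from 13.4 to 5.85 TPM in WT (-1.19) and from 15.0 to 5.62 TPM in PERK -/- MEFs (-1.42). Canx, the membrane lectin chaperone, fell from 1244 to 721 TPM in WT MEFs (-0.79), and Uggt1 from 94.5 to 46.6 TPM in PERK -/- MEFs (-1.02). Among the 10 genes of the ER membrane complex, another insertion route, 2 rose and 1 fell at 8 h in WT, 2 rose and 1 fell in PERK -/- MEFs, and 0 rose and 2 of 9 fell in NIH3T3 cells. Emc10 went from 41.6 to 78.0 TPM in WT (0.91), Mmgt1 from 72.7 to 124 TPM in PERK -/- MEFs (0.77), and Emc1 fell from 69.5 to 30.7 TPM in PERK -/- MEFs (-1.18) and from 46.2 to 22.9 TPM in NIH3T3 cells (-1.01). Of 6 expressed genes for tail-anchored insertion, 1 rose in WT MEFs (Bag6, 0.71), 0 passed 1.5-fold in PERK -/- MEFs and 2 fell in NIH3T3 cells. For the GPI transamidase, which also acts on entering proteins, 0 of 5 genes passed 1.5-fold in WT MEFs, Pigu rose in PERK -/- MEFs (0.88), and 2 fell in NIH3T3 cells (Pigt at -0.87 and Pigs at -0.62).

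RefSeq promoter windows of GRCm38.p6 were searched for 4 motifs on both strands. Each window runs from 250 bases before to 50 bases after a gene's start, and 25 of the 34 genes had one. The full ER stress element ERSE (CCAAT, 9 bases, CCACG) was in 0 of the 25 and in 0.137% of all 27025 genes with a window. ERSE-II (ATTGG, 1 base, CCACG) was in Krtcap2 alone, against 0.0444% of all genes. The amino acid response element searched as TGATG followed by CAAT was in 0 of the 25 and in 0.222% of all genes. The core ACGTG, which is also a part of longer motifs, was in 11 of the 25, or 44%, against 21.8% of all genes and 30.7% of the expressed ones. Of the 7 genes up 2-fold in PERK -/- MEFs at 8 h, 5 had a window and 3 of these the core (Srprb, Dad1, Krtcap2). Of the other 27 genes 20 had a window and 8 the core. Among these 8, Srpr, Ssr3, Magt1 and Spcs1 also rose there past 1.5-fold (0.88, 0.83, 0.72 and 0.65). Ssr1 and Sec63 were at 0.55 and -0.11 there, and were below their control by TPM in all WT libraries with Tg. Srp14, Sec62 and Spcs1 were also below it in all of these. The stretches that hold the matches are shown for the 3 called genes and for Ssr1 and Sec63. They are written 5′ to 3′ on the strand of the gene with the core, in either orientation, in capitals, and in the last line the ERSE-II match of Krtcap2, which begins 17 bases after one of its annotated starts.
Srprb (chr9:103202068-103202127, minus strand): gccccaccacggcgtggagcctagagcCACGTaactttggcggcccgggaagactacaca
Dad1 (chr14:54254043-54254102, minus strand): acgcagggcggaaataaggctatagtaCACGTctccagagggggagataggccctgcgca
Krtcap2 (chr3:89246378-89246437, plus strand): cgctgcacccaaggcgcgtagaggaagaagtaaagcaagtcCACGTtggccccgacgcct
Ssr1 (chr13:37994209-37994268, minus strand): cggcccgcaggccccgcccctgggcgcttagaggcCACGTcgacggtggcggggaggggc
Sec63 (chr10:42761436-42761495, plus strand): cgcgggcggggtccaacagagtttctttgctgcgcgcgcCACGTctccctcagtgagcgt
Krtcap2, ERSE-II (chr3:89246481-89246510, plus strand): gggacacggATTGGACCACGgacggggcgt
A match is a description of these letters and not of a bound site, and genes with and without the core are found among those that rose and those that did not.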

How the data were processed

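The deposited tables held expected counts and TPM per gene for 13 ribosome footprint libraries. The authors mapped trimmed footprints to mm10 RefSeq coding sequences, clipped at both ends, with Bowtie2 after STAR had removed rRNA and tRNA reads, and RSEM estimated both units. Their versions are not given in the sources used here. The clipping leaves short genes such as Srp9 with few countable positions. The study's own settings were used: a minimum mean of 2 TPM per table, a floor of 4 TPM, ratios to the control of the same cells, and 2-fold as the call, with 1.5-fold as a second call. No library was replicated, so no test was run. Exact 95% intervals of count ratios and all medians were computed in Python 3.11.15 with numpy 2.4.6, pandas 2.3.3 and scipy 1.17.1. The scaling alternatives used edgeR 4.0.16 and DESeq2 1.42.0 in R 4.3.3, for scaling factors only, with no count test. Other alternatives changed the floor, the filter, the depth (thinning) and GC content. The scripts were tested on simulated data. All 34 members are named, and of the other lists up to 3 genes per direction with at least 100 counts in both libraries and the largest late change. Dolpp1 and Emc9 in PERK -/- MEFs are named although below that count. Members and lists were chosen with earlier results of these data known. RefSeq windows gave 25 promoters, and the other 9 are Sec61a1, Srp19, Srp68, Ssr2, Spcs3, Sec11c, Tram1, Ostc and Tusc3.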

Additional observations from a re-analysis of the deposited data

Results flagged for a closer look

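Sec61b at 2 h of Tg was flagged because the genotypes moved in opposite directions. Its log2 change was 0.68 in PERK WT MEFs (from 176 to 281 TPM) and -0.72 in PERK -/- MEFs (from 276 to 168 TPM). With 1 library per condition, the difference was not tested against replicates. After the trend on GC content was taken out, the values were 0.38 and -0.40, and over the 9 alternatives the PERK -/- value lay between -0.72 and -0.40 and was past 1.5-fold in 5.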

How the results depend on the processing

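The rise of the members in PERK -/- MEFs at 8 h kept its direction under every alternative run, with a median between 0.54 and 0.63 and 32 to 33 of 34 genes above the control, and 5 to 7 genes past 2-fold. The median difference between genotypes at 8 h ran from 0.42 to 0.57. Of the 64 single changes past 1.5-fold, 39 stayed past it in all 9 alternatives, 25 did not in at least 1, and 0 changed sign. With TMM factors, the count up 2-fold in WT MEFs at 5 h was 0 and in NIH3T3 cells at 7 h 1, the PERK -/- 1 h median was 0.095 for all members and 0.27 for signal peptidase, the PERK -/- 2 h median was 0.24 for TRAP and 0.45 for signal peptidase, the NIH3T3 2 h median was -0.16 and the control ratio 0.014. With DESeq2 size factors these were 0 (WT 5 h) and 1 (NIH3T3 7 h), 0.26 (signal peptidase, 1 h), 0.24 (TRAP) and 0.45 (signal peptidase, 2 h), -0.15 and 0.025. Counts per library total gave 0.14 for TRAP in PERK -/- MEFs at 2 h. Counts thinned to the smallest library gave 0.23 (signal peptidase, PERK -/- 1 h), 0.15 (TRAP, 2 h) and 0.43 (signal peptidase, 2 h), with 1 gene up 2-fold in PERK -/- MEFs at 5 h and 1 in NIH3T3 cells at 7 h. With the GC trend taken out, the number up 2-fold was 0 at 5 h in WT MEFs and also 0 at 8 h, and in PERK -/- MEFs the signal peptidase median was 0.01 at 1 h and 0.10 at 2 h (0.15 and 0.27 as reported) and that of TRAP at 2 h was -0.04 (0.06). With core subunits only, the medians of the Sec61 group and SRP turned sign in WT MEFs at 5 h (0.17 and -0.04) and 8 h (0.22 and -0.09) and in NIH3T3 cells at 7 h (0.10 and -0.06, from -0.25 and 0.22). At 1.5-fold, the counts up and down were 1 and 2, 1 and 4, 7 and 2, and 6 and 1 in WT MEFs, 2 down at 2 h, 6 up at 5 h and 18 up at 8 h in PERK -/- MEFs, and 7 down at 2 h and 6 up at 7 h in NIH3T3 cells. The cause of these shifts was not tested. Over all genes, the share of 2-fold calls that were up went under TMM from 9.73% to 27.6% in PERK -/- MEFs at 2 h, from 17.5% to 34.6% at 1 h and from 60.5% to 80.4% in NIH3T3 cells at 2 h. No replicate could be left out, and no paired analysis was possible because each condition was 1 library. Depth limits small genes most, since 3 counts are 1.19 CPM in the shallowest library.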
